A study of Mus musculus with 21 samples.

Results

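The Irf8 locus was described here as the peaks of 4 deposited lists that overlap a window of 220 kb on chromosome 8 of mouse build mm9, from 123180000 to 123400000. The window holds Irf8, on the plus strand at about 123260000 to 123281000, with 80 kb of upstream and 119 kb of downstream sequence. It contained 91 of the 215239 peaks of the 4 lists: 30 of ALP, 27 of EILP, 27 of ILCP and 7 of TCF1. The DNase I hypersensitive sites (DHS) of the 3 stages merged into 42 regions there, of 102384 in the genome.

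Irf8 encodes interferon regulatory factor 8, a transcription factor of hematopoietic cells. It is required for the cross-presenting conventional dendritic cells and for normal monocyte and plasmacytoid dendritic cell development, it restrains the neutrophil fate, and it is also expressed in lymphoid progenitors and B cells. Its transcription is controlled by the promoter and by distal enhancers named by their distance from the start. The elements 50 kb upstream and 56 kb downstream are bound by PU.1, the element 41 kb downstream is bound by E proteins, and the element 32 kb downstream is bound by BATF3 and IRF8 in dendritic cells. TCF1, encoded by Tcf7, is an HMG-box factor of T cell and innate lymphoid progenitors.

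The series holds 21 samples of sorted bone marrow cells of C57BL/6 mice of unstated age. DNase-seq was made from 300 cells per library in 3 libraries per stage, with 0.3 units of DNase I for 5 minutes. ALP, the all-lymphoid progenitor, was sorted as Lin- cells that were Kit+, 2B4+, Flt3high and IL-7Ra+ but a4b7-. EILP, the early innate lymphoid progenitor, was Thy1- and carried Kit, 2B4, a4b7 and the Tcf7 reporter. ILCP, the innate lymphoid cell precursor, was sorted like EILP but Thy1+ and IL-7Ra+. CUT&RUN cuts DNA next to an antibody-bound protein with a tethered nuclease, and was made from 500 EILP per library. There were 6 TCF1 and 4 IgG libraries, some of them technical repeats. A further 2 were titled as TCF1 but described by the IgG track, and were assigned to no group. The antibody label names a TCF1 antibody for the IgG libraries too. All animals carried a Tcf7 reporter allele over a normal one. The genotype label was Tcf7EGFP/+ for ALP and ILCP and Tcf7EGFPnull/+ for EILP in both assays, while the pooled DNase-seq files were named WT per the file headers. By these labels EILP differs from both other stages in genotype as well, and the effects of stage and genotype cannot be told apart. Sorted identity rests on these labels, because peak lists hold no transcript levels.

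The authors pooled the libraries of a stage before calling peaks. With 1 list per stage there is no replicate error, and no difference was tested. Peak height counts the extended tags that cover the summit. It was scaled to 10000000 filtered tags (written below as per 10M), of which ALP had 12420429, EILP 11236009 and ILCP 12681410. Intervals are exact 95% intervals of the counts and cover counting error only, and tags without molecular identifiers are not independent molecules. Height can differ with the share of cells open at a site or with openness per cell, and these cannot be told apart. TCF1 was shallow, with 2418839 tags against 2919489 in its control. A region was gained if only the later stage of a pair had a peak in it, and lost if only the earlier stage had one. The numbering of the peaks within the window ran without a gap in each list.

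The tallest DHS of the window lay at the Irf8 start in all 3 stages, with a TCF1 peak in EILP, and the sequence just before the annotated start is shown for that reason. The start in mm9 is used here as a rounded position and the sequence is of another build, so whether the DHS or the TCF1 peak covers the printed bases was not tested. The 250 bases before the annotated start, from the RefSeq promoter table of build GRCm38.p6, are on the plus strand of that build at chr8:120736108-120736357. Capitals mark CpG dinucleotides, which are dense in many promoters and rare elsewhere in the genome.

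Irf8 promoter: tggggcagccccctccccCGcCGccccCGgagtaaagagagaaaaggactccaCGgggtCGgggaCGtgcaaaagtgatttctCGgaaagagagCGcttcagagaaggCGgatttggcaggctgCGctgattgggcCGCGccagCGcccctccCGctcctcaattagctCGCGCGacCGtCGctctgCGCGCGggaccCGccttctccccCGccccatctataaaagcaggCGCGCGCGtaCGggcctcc

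The promoter is rich in G and C, at 67.2% against a median of 52.4% over the 32851 promoters of the table, and it has 29 CpG dinucleotides against a median of 6. Motifs were searched on both strands, and the share of all promoters that hold each over the same length is given. No letters matching CTTTGA (the TCF and LEF core, in 13.8% of promoters), GAGGAAGT (PU.1, 2.44%), the composite ETS and IRF motif (2.30%), the interferon-stimulated response motif (2.98%), CAGGTG (E protein, 17.2%) or TGTGGT (RUNX, 14.0%) were found on either strand of these 250 bases. The composite motif was searched as GGAA, any 2 bases, then GAAA, and the interferon-stimulated motif as GAAA, any 2 bases, then GAAA, so both can overlap the PU.1 motif or each other. The sequences of the distal regions are not printed, because no genome of build mm9 was used here.

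The DHS at the start spanned 123260038 to 123260440. Its summit held 28 tags in ALP, 30 in EILP and 38 in ILCP. Scaled to 10M tags these were 22.5 (15.0 to 32.6), 26.7 (18.0 to 38.1) and 30.0 (21.2 to 41.1). It was the tallest DHS of the window in every stage, and stood above 85.9% of all ALP peaks, 89.4% of all EILP peaks and 93.5% of all ILCP peaks. The values stood in the order ALP, EILP, ILCP, with overlapping intervals. The ratio of ILCP to ALP was 1.33 (0.795 to 2.25), and over all regions open in both stages its median was 1.04. The TCF1 peak there, at 123260189 to 123260312, held 6 tags, and its summit lay 100 bp from the EILP summit. The RefSeq table lists another Irf8 start 2281 bases downstream of the one above. No list had a peak in the 15.6 kb between 123260440 and 123276061, so called DHS within the gene were otherwise limited to 1 region. That region, 16.2 kb from the start, was called in ALP and ILCP with 10 tags each and not in EILP.

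The tallest DHS lost at ILCP in the window was the region nearest to the known distal element 56 kb downstream of the start. Regions were matched to known elements by distance alone, and whether they are those elements was not tested. The region spanned 123316622 to 123317003, with its midpoint 56.8 kb from the start as used here. It had 22 tags in ALP and 29 in EILP and no peak in ILCP. Scaled heights were 17.7 (11.1 to 26.8) in ALP and 25.8 (17.3 to 37.1) in EILP, and the summit was at the same base, 123316825, in both. In EILP it was the second tallest DHS of the window after that at the start, above 88.5% of all EILP peaks. The nearest ILCP peak lay 3266 bp away.

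Few DHS this tall lacked a peak at the later stage. Over the genome 28.4% of EILP regions had no ILCP peak, with a median EILP height of 9 tags among them. Only 54 of those 19627 regions (0.275%) were as tall as this one or taller. Put the other way, of the 8022 EILP regions with at least 29 tags, 0.673% had no ILCP peak. The EILP peak here had a local background of 1.85 tags, from the authors' fold enrichment. Of 10662 ILCP peaks with a background at least as high, the lowest held 8 tags, or 6.31 per 10M. The ILCP background at this site is not known, because no ILCP peak was called there. The narrowest peak of each list was 100 bp, so a shorter stretch above the cutoff would not be listed. Lower ILCP signal would not appear in the list.

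**Figure D1:**
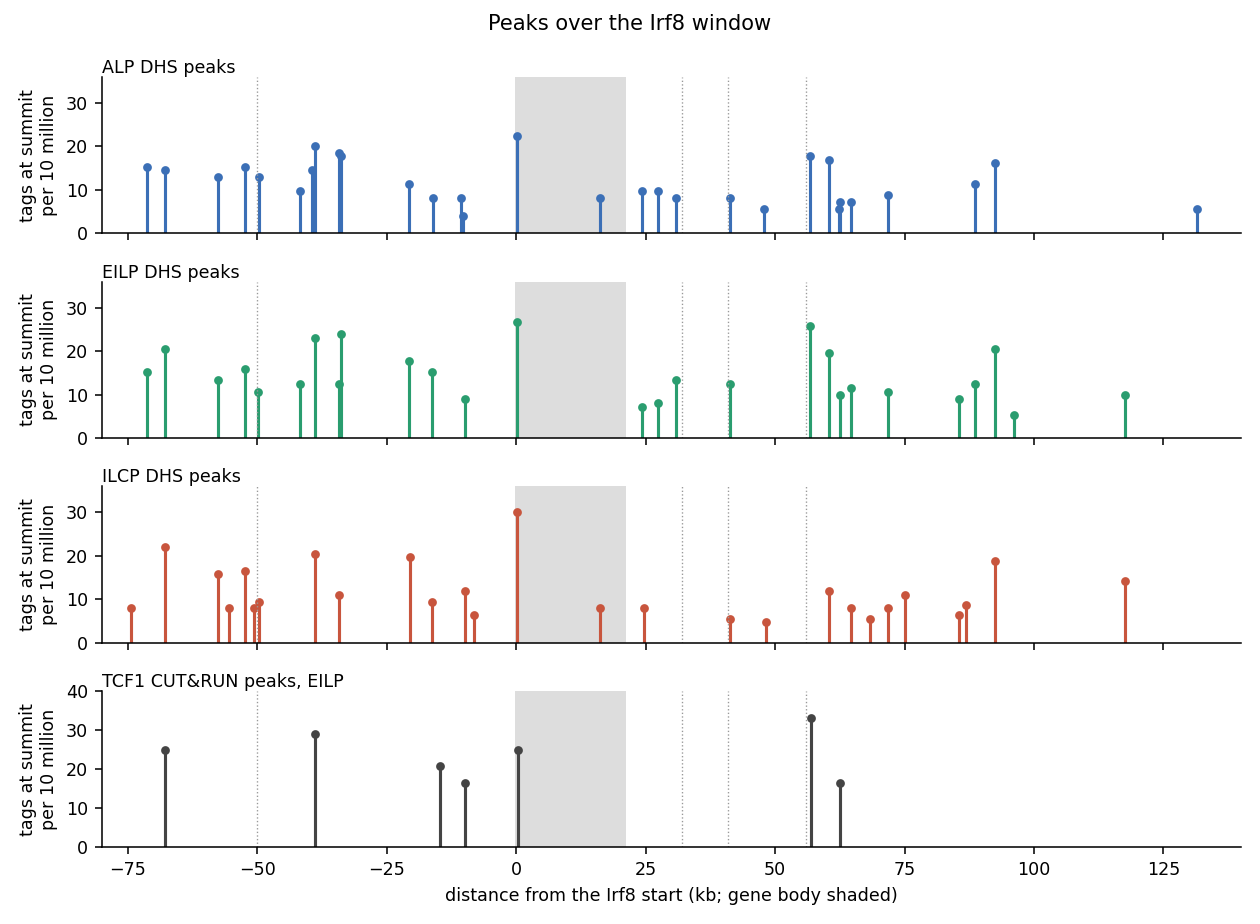
Peaks of the 4 lists over the Irf8 window, by distance of the summit from the Irf8 start in kb (horizontal) and tags at the summit per 10M filtered tags of that list (vertical). Each stem is 1 peak, the gene body is shaded, and dotted lines mark the known elements 50 kb upstream and 32, 41 and 56 kb downstream. The stem at the start is present in all 4 panels, and the stem near 56 kb, at 17.7 in ALP and 25.8 in EILP, has no counterpart in ILCP.

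The region at 56.8 kb was also the site of the tallest TCF1 peak of the window. That peak, at 123316743 to 123316976, held 8 tags at its summit against a background of 0.829, and was taller than 84.2% of the TCF1 list. The background was high beside the list median of 0.166, and by the authors' fold enrichment, 4.92, the peak stood above 42.6% of the list. Its summit lay 92 bp from the DHS summit of EILP. A TCF1 peak in EILP together with no DHS peak in ILCP was found in 281 of the 3877 TCF1-occupied EILP regions of the genome (7.25%). Of those 281, 6 (2.14%) had an EILP height of 29 tags or more.

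The other known distal elements also had regions within 2 kb. The region at 30.7 kb downstream, at 123290634 to 123290861 and nearest to the 32 kb element of dendritic cells, had 10 tags in ALP, 15 in EILP and no ILCP peak. The nearest ILCP peak was 5890 bp away. Its ratio of EILP to ALP was 1.66 (0.697 to 4.13), an interval that holds the genome median of 1.11.

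The region at 41.3 kb, at 123301161 to 123301410 and nearest to the E protein element, was open at each stage. It held 10 tags in ALP, 14 in EILP and 7 in ILCP. Scaled heights were 8.05 (3.86 to 14.8), 12.5 (6.81 to 20.9) and 5.52 (2.22 to 11.4), highest in EILP, with overlapping intervals. The ratio of ILCP to EILP was 0.443 (0.151 to 1.17). A lower ratio was found in 3.54% of all regions open in both stages.

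The region nearest to the element upstream of the gene had a peak throughout. It lay 49.8 kb upstream, at 123209958 to 123210415, and held 16 tags in ALP, 12 in EILP and 12 in ILCP. Scaled, these were 12.9 (7.36 to 20.9), 10.7 (5.52 to 18.7) and 9.46 (4.89 to 16.5). A further ILCP peak of 10 tags lay 50.7 kb upstream and was found at no other stage. The regions nearest to the downstream elements at 32 and 56 kb had no ILCP peak. The region nearest to the 41 kb element had its lowest height in ILCP, and that nearest to the element 50 kb upstream had a peak in each stage.

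**Figure D2:**
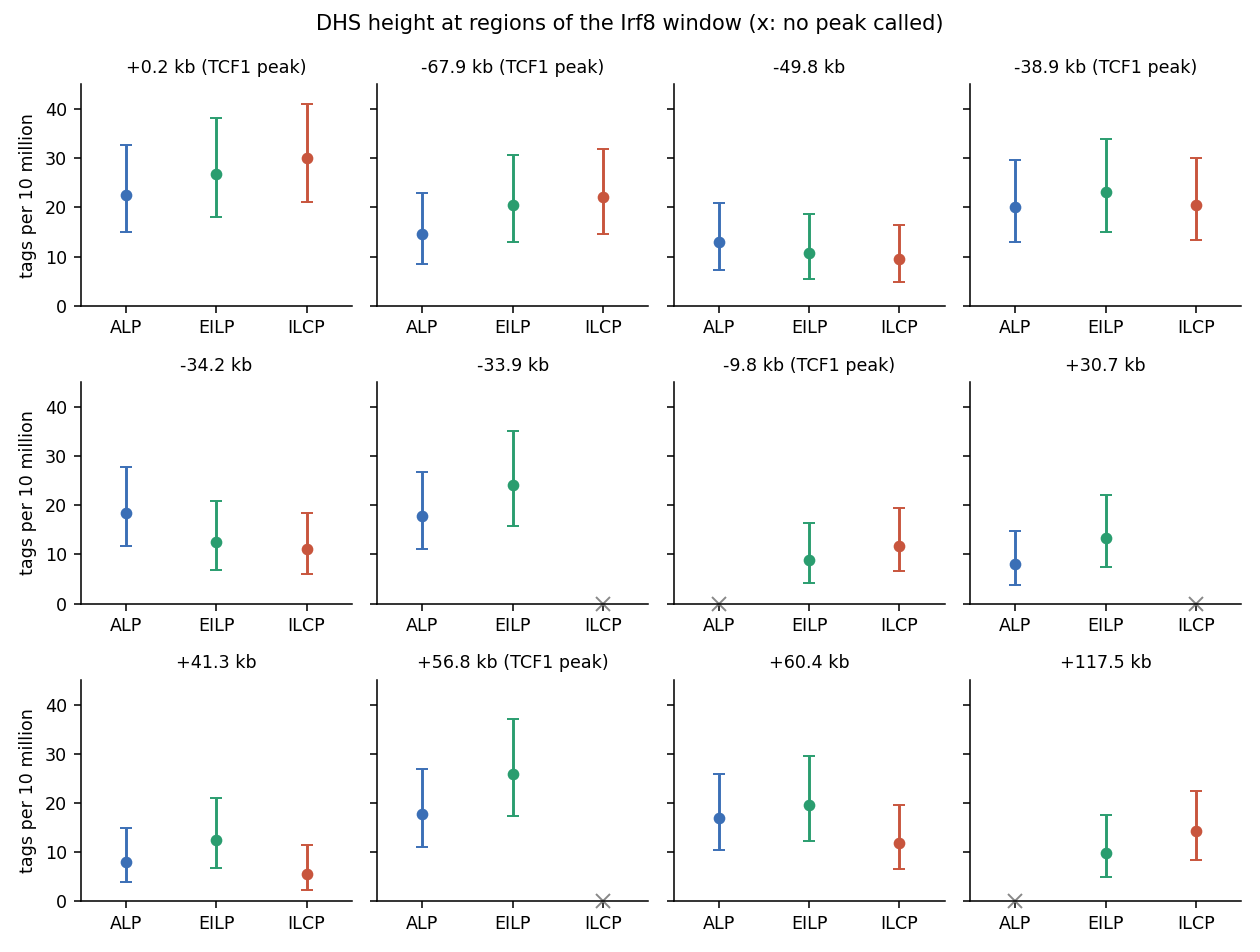
DHS height in tags at the summit per 10M filtered tags (vertical) at each stage (horizontal) for 12 regions, titled by distance of the midpoint from the Irf8 start. Points are pooled lists, bars are exact 95% intervals of the tag count, and a cross means that no peak was called. At 56.8, 30.7 and -33.9 kb the ILCP position holds a cross, at -9.8 and 117.5 kb the ALP position does, and wherever points are drawn the intervals of a panel overlap.

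On the upstream side the tallest region lost at ILCP was one of an adjacent pair about 34 kb from the start. In ALP the summits were 319 bp apart and nearly equal, with 23 tags in the farther region (123225694 to 123225918) and 22 in the nearer one (123226018 to 123226248). In EILP the farther one held 14 tags and the nearer one 27. In ILCP the farther one again held 14 and the nearer one had no peak.

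The nearer region, 33.9 kb upstream, had a scaled height of 17.7 (11.1 to 26.8) in ALP and 24.0 (15.8 to 35.0) in EILP. Of all EILP regions lost at ILCP, 107 (0.545%) were as tall as its 27 tags or taller. The ILCP peak of the farther region ended 100 bp away, so this loss is not counted when a peak within 500 bp makes a region present. The farther region, at 34.2 kb, had scaled heights of 18.5 (11.7 to 27.8) in ALP, 12.5 (6.81 to 20.9) in EILP and 11.0 (6.04 to 18.5) in ILCP, again with overlapping intervals. Neither region held a TCF1 peak.

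**Figure D3:**
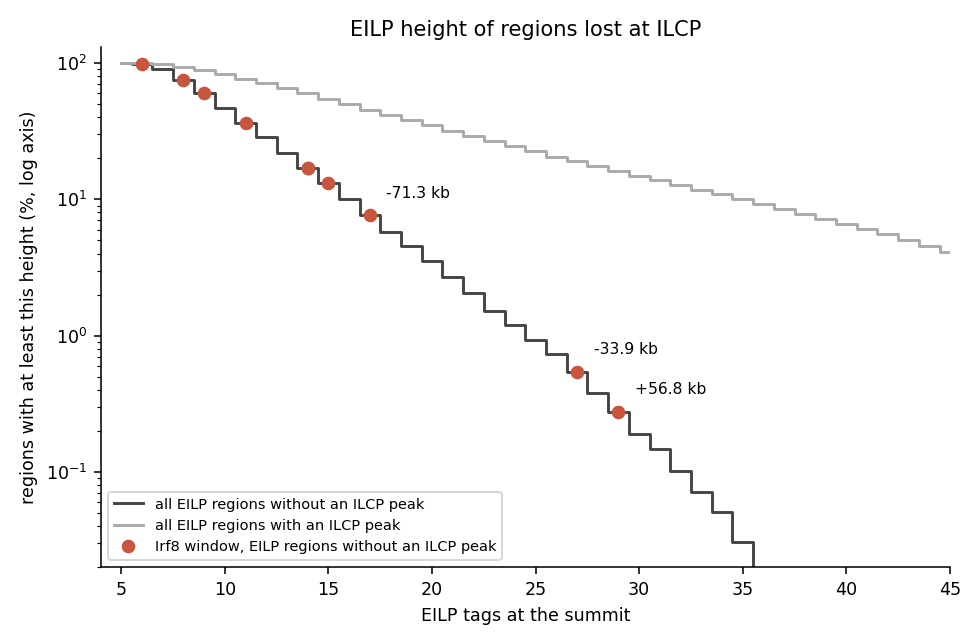
Share of regions (vertical, percent, log axis) with at least a given EILP height in tags at the summit (horizontal), for all EILP regions without an ILCP peak (dark line) and with one (light line). Dots are the 10 EILP regions of the Irf8 window without an ILCP peak, of which those at 56.8 kb (29 tags, 0.275%) and -33.9 kb (27 tags, 0.545%) lie far down the dark line.

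TCF1 peaks were placed along both sides of the gene. Of the 7 TCF1 peaks of the window, 6 overlapped an EILP DHS, 5 an ALP DHS and 4 an ILCP DHS, against 57.5%, 51.2% and 58.2% of the whole TCF1 list. They occupied 6 of the 27 EILP regions of the window, 22.2% (8.62 to 42.3), where 5.62% of all EILP regions were occupied. Over all merged regions 6 of 42 were, against 4.16%. Among EILP regions with an ILCP peak 4 of 17 were occupied, 23.5% (6.81 to 49.9) against 7.28%, and among those without one 2 of 10, 20.0% (2.52 to 55.6) against 1.43%. These genome shares were not matched for DHS height. In the window 17 of 27 EILP peaks stood above the median height of the EILP list, against 33263 of 70088 in the whole list. TCF1 heights ran from 4 to 8 tags, with a median of 6 against 5 in the whole TCF1 list, while the median fold enrichment was 4.92 against 5.15. The control of these calls holds the 2 libraries with conflicting labels. Their part in these heights was not tested.

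The regions open at all 3 stages that held a TCF1 peak in EILP were the one at the start and a pair upstream. The region 67.9 kb upstream (123191919 to 123192327) held 18 tags in ALP, 23 in EILP and 28 in ILCP, or 14.5 (8.59 to 22.9), 20.5 (13.0 to 30.7) and 22.1 (14.7 to 31.9) per 10M. Its TCF1 peak had 6 tags, and the ILCP to ALP ratio was 1.52 (0.814 to 2.92).

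The region 38.9 kb upstream (123221003 to 123221222) held 25, 26 and 26 tags, and its TCF1 peak 7. Its scaled heights lay close together, at 20.1, 23.1 and 20.5 per 10M. At both places the TCF1 summit was 12 bp from the EILP summit.

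A region 9.8 kb upstream was the one TCF1-occupied region gained at EILP. At 123250065 to 123250332 it had no ALP peak, 10 tags in EILP and 15 in ILCP, and its TCF1 peak held 4 tags. Within 232 bp of it lay an ALP peak of only 5 tags, and 639 bp from it another ALP peak of 10 tags, neither of which overlapped a peak of a later stage. With presence counted within 500 bp, this region also counted as open in ALP.

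The remaining TCF1-occupied region, 62.5 kb downstream (123322403 to 123322660), was low throughout. It held 11 tags in EILP, had no ILCP peak, and its TCF1 peak had 4 tags. ALP had 2 peaks in it, of 7 and 9 tags, and the TCF1 peak overlapped only the lower of these. Together with the region at 56.8 kb, the region at 62.5 kb made 2 of the 6 occupied EILP regions lost at ILCP, 33.3% (4.33 to 77.7). The genome share was 7.25%, within that interval. Both regions lie downstream, and the 4 occupied regions at and upstream of the start each had an ILCP peak. The peak at 123245146 to 123245303, 14.8 kb upstream with 5 tags, overlapped no DHS, and the nearest EILP peak was 1108 bp away.

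Over the whole window, gains and losses were counted beside their genome shares. From ALP to EILP, 4 of 27 EILP regions were gained, 14.8% (4.19 to 33.7) against 28.1% over the genome, and 6 of 29 ALP regions were lost, 20.7% (7.99 to 39.7) against 24.1%. From EILP to ILCP, 10 of 27 ILCP regions were gained, 37.0% (19.4 to 57.6) against 30.6%, and 10 of 27 EILP regions were lost, 37.0% (19.4 to 57.6) against 28.4%. Between ALP and ILCP, 14 of 29 ALP regions had no ILCP peak, 48.3% (29.4 to 67.5) against 32.6%, and 12 of 27 ILCP regions had no ALP peak, 44.4% (25.5 to 64.7) against 38.1%. Each of these intervals holds the genome value.

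By pattern, 14 of the 42 regions were open at all stages, 33.3% (19.6 to 49.5) against 39.0%. Regions open in ALP and EILP and not in ILCP made up 9 of 42, 21.4% (10.3 to 36.8), and 9.52% in the genome, a value just below the interval. Regions found in ILCP alone were also 9 of 42, against 17.2% in the genome. The window was dense in DHS: 41 of 8556 tiles of 220 kb with at least 1 region (0.479%) held 42 regions or more, and the median tile held 10.

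The sides of the gene differed in their counts at the step to ILCP. Downstream, 7 of 14 EILP regions were lost, 50.0% (23.0 to 77.0), and upstream 3 of 12 were, 25.0% (5.49 to 57.2). These intervals overlap, and both hold the genome value of 28.4%. Gains at this step were 5 of 12 ILCP regions downstream, 41.7% (15.2 to 72.3), and 4 of 13 upstream, 30.8% (9.09 to 61.4). Both intervals hold the genome value of 30.6%. The downstream loss at 24.4 kb, with 8 tags in EILP, had an ILCP peak of 10 tags 113 bp away. That ILCP peak was itself counted as a gain. Summed DHS height per 10M tags was 138 in ALP, 175 in EILP and 110 in ILCP downstream, over 2350, 2735 and 2023 bp of peaks. Upstream the sums were 183, 190 and 166, over 3479, 2936 and 2771 bp. These sums take called peaks only, so a region lost at a stage adds nothing there, and they carry no interval. Downstream peaks were lower than upstream ones in each stage, with medians of 10.5 against 17.0 tags in ALP, 12.5 against 17.0 in EILP and 10.0 against 14.0 in ILCP.

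No height ratio of a region open in both stages had an interval that left out 1. From ALP to EILP, 5 of 23 shared regions were at least 1.5-fold higher and 0 at least 1.5-fold lower, with 16.4% and 8.04% over the genome. The genome median of this ratio was 1.11, and with that taken as 1, the counts in the window were 2 higher and 1 lower. The 5 higher regions lay 16.1 kb (ratio 1.88, 0.813 to 4.59) and 20.6 kb (1.58, 0.759 to 3.38) upstream and 30.7, 41.3 and 64.6 kb downstream. Of the 23 regions, 18 had a ratio above 1 and 5 below. Over the genome 61.9% of shared regions had a ratio above 0.989 and 55.7% a ratio above 1.04.

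From EILP to ILCP, 0 of 17 shared regions were at least 1.5-fold higher and 3 at least 1.5-fold lower, against 10.0% and 15.9% over the genome. With the genome median of 0.960 taken as 1, they were 1 and 3. The lower ones were at 41.3 kb, at 60.4 kb downstream (22 tags in EILP and 15 in ILCP, ratio 0.604, 0.291 to 1.22) and at 16.1 kb upstream (17 and 12 tags, ratio 0.625, 0.273 to 1.39). Downstream, 6 of 7 ratios were below 1, with a median of 0.709, and upstream 4 of 9 were, with a median of 1.03.

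From ALP to ILCP, 2 of 15 shared regions were at least 1.5-fold higher and 1 lower, against 15.1% and 13.9% over the genome. With the genome median taken as 1 the counts were 1 and 2. The higher ones were at 67.9 kb and at 20.6 kb upstream, where 14 tags in ALP stood against 20 in EILP and 25 in ILCP, and the lower one was at 34.2 kb.

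**Figure D4:**
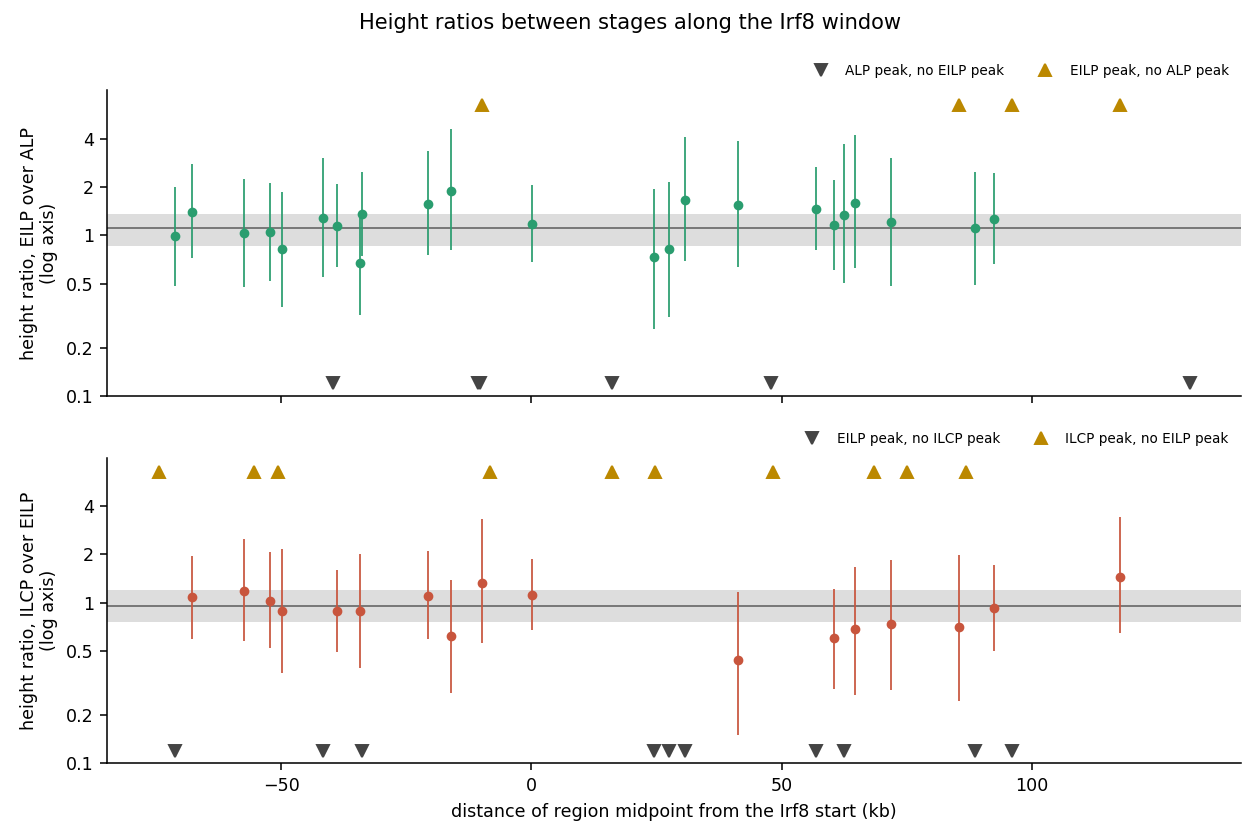
Ratio of scaled DHS height between stages (vertical, log axis), EILP over ALP above and ILCP over EILP below, by distance of the region midpoint from the Irf8 start in kb (horizontal). Points are regions open in both stages with exact 95% intervals of the ratio, the grey line and band are the median and the middle quartiles of all such regions of the genome, and triangles mark regions called at 1 stage only. In the lower panel 7 of the 10 downward and 5 of the 10 upward triangles lie downstream of the gene. Of the 7 downstream points there, 6 lie below 1. The genome median in that panel, 0.960, is also below 1, and 45.4% of all such regions lie below 0.925.

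Stage-restricted regions other than those above were mostly low. The region 71.3 kb upstream (123188570 to 123188861) had 19 tags in ALP and 17 in EILP and no ILCP peak, and 7.63% of all EILP regions lost at ILCP were as tall or taller. A region 39.6 kb upstream was found in ALP alone with 18 tags, beside the region at 38.9 kb, and 4.68% of all ALP regions lost at EILP were as tall or taller. The EILP and ILCP peaks at 38.9 kb lay 473 and 461 bp from it. With presence counted within 500 bp, the region at 39.6 kb also counted as open in both. The remaining ALP-only regions of the window held 5 to 10 tags.

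ILCP had 2 regions of moderate height that ALP lacked far downstream. The region at 117.5 kb (123377387 to 123377691) had no ALP peak, 11 tags in EILP and 18 in ILCP, with scaled heights of 9.79 (4.89 to 17.5) and 14.2 (8.41 to 22.4). The region at 75.0 kb (123334842 to 123335150) was found in ILCP alone with 14 tags, and 15.5% of all regions gained at ILCP were as tall or taller. The other 8 ILCP-only regions held 6 to 11 tags. At 92.4 kb, in contrast, a region of 20, 23 and 24 tags was open throughout.

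No region crossed either end of the window. On the upstream side, just inside was an ILCP-only region of 10 tags, 74.4 kb from the start, and just outside an ILCP-only region of 15 tags at 85.1 kb. On the downstream side an ALP-only region of 7 tags lay inside at 131.5 kb, and the next region, 152.0 kb from the start, was open at all 3 stages with 11, 22 and 14 tags. In the RefSeq table of GRCm38.p6 the nearest protein-coding neighbours of Irf8 are Cox4i1 on the upstream side and Foxf1 on the downstream side, so a region of the window need not belong to Irf8. The mm9 positions of these neighbours were not used here, so a region described above may lie at the start of another gene. Which gene each region acts on was not tested.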

How the data were processed

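The members and lists were chosen with earlier results of these data known. The 4 peak lists were called with MACS2 version 2.1.1.20160309 on pooled tags at a q cutoff of 0.05, keeping 1 tag per position and extending tags to 100 bp, per the file headers. DNase-seq tags were shifted by 50 bp without a control, with the background taken from 10 kb around, per the file headers. TCF1 was called against the pooled IgG-named file with windows of 1 and 10 kb, per the file headers. Coordinates are of mm9 (submitters' processing notes), and the aligner is not given in the sources used here. The deposited pileup signal is unscaled tags at the summit. The deposited fold enrichment is the ratio of pileup plus 1 to background plus 1, from which the background was worked out. The deposited −log10 of the q-value served to filter alternatives.

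With Python 3.11.15, numpy 2.4.6, pandas 2.3.3 and scipy 1.17.1, DHS peaks sharing at least 1 bp were merged over the genome. A region's height was its tallest peak. Ratios used exact conditional binomial intervals, shares exact Clopper-Pearson intervals and heights exact Poisson intervals. No molecular identifiers are named in the sources used here, and the summit is the highest point of a peak. Regions were named by rule: the start, the 4 known elements, regions with a TCF1 peak in them or within 1 kb, the 5 tallest, and stage-restricted regions above the median fold enrichment of their list. The regions 16.1, 20.6, 34.2, 50.7 and 74.4 kb upstream and 16.2, 60.4, 64.6, 92.4 and 131.5 kb downstream of the start were added after their values were seen. Counting and intervals were tested on simulated data. A further promoter motif is not reported here. Alternatives covered thresholds, overlap, window and scaling.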

Additional observations from a re-analysis of the deposited data

How the results depend on the processing

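No paired analysis was possible because each list pools its libraries, and no library could be left out for the same reason. Of 103 alternative values for counts, 86 stayed within 1.5 times. Some of these could not change, such as the number of regions, 42, when presence was counted within 500 bp. The lowest −log10 q of a TCF1 peak in the window was 2.04, so a cutoff of 2 removed none. With a −log10 q of at least 5, 7 regions were gained at EILP and 5 at ILCP. With 100 kb added to each side, the window held 65 regions, 24 open at all stages and 10 gained at EILP, as the construction implies. With TCF1 peaks of at least 6 tags, 4 peaks and 1 occupied region lost at ILCP were left. At 2-fold, 0 regions were higher in EILP than in ALP, 0 higher and 0 lower in ILCP than in ALP, and 1 lower in ILCP than in EILP. With the genome median ratio as 1, 2 were higher and 1 lower in EILP than in ALP, 1 higher in ILCP than in EILP, and 1 higher and 2 lower in ILCP than in ALP. With the background subtracted, 1 was lower in EILP than in ALP. The cause was not tested. Single absences were tried at 56.8 and 30.7 kb and at 33.9 kb upstream in ILCP, and at 9.8 kb upstream in ALP. Only counting a peak within 500 bp as present could end one. With it the regions at 56.8 and 30.7 kb still had no ILCP peak, and the other regions tried became present. That setting also ended absences not tried singly, such as those at 24.4 kb in ILCP and 39.6 kb upstream in EILP and ILCP. Regions open at all stages rose from 14 to 20 with it, which is within 1.5 times. Downstream losses at ILCP ranged from 6 to 9. Tag depth limits ratios, none of whose intervals excluded 1.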
